A study of Mus musculus with 163 samples.

Results

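P2X receptors are ATP-gated cation channels, and 5 of their genes were followed here: P2rx2, P2rx3, P2rx4, P2rx5 and P2rx7. They were chosen by name among the 55291 genes of the count table, which also holds the other P2X genes, P2rx1 and P2rx6, so that 7 P2X genes were measured in all. The cells were 163 single hair cells picked from mouse cochleae at postnatal day 7: 43 outer hair cells of controls (Ctrl OHC) and 56 of mutants (Exp OHC), with 38 inner hair cells of controls (Ctrl IHC) and 26 of mutants (Exp IHC). Controls carried the genotype Atoh1P2A-Tdtomato/+, in which a red fluorescent protein is expressed from the Atoh1 locus. Mutants carried Atoh1P2A-Cre/P2A-Tdtomato with Rbm24flox/flox, so that Cre, driven from Atoh1, acts on floxed alleles of Rbm24, a gene for an RNA-binding protein that regulates splicing. All groups share the tdTomato insertion, whereas Cre and a second modified Atoh1 allele differ between the genotypes together with Rbm24. No label names the animal of a cell, so each group is 1 sample, its cells are not replicates, and no test was made.

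A P2X channel is built of subunits around a common pore, each with a large extracellular loop that takes part in binding ATP. Subunits can assemble with themselves or, as P2rx2 with P2rx3 products do in sensory neurons, with each other. In the cochlea, ATP released into the fluid spaces acts on such channels. The P2rx2 product is the subunit known from the hair cells and other cells that face the endolymph, and the human gene is linked to inherited and noise-related hearing loss. Before hearing begins, ATP released by supporting cells also takes part in the spontaneous activity of the cochlea.

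The members lie on 3 chromosomes of GRCm38 (GENCODE M21). P2rx2 (ENSMUSG00000029503.16) is at chr5:110339812-110343212 on the minus strand, and P2rx3 (ENSMUSG00000027071.14) is at chr2:84998583-85037462 on the minus strand. P2rx7 (ENSMUSG00000029468.17) at chr5:122643911-122691432 and P2rx4 (ENSMUSG00000029470.15) at chr5:122707544-122729738 lie beside each other on the plus strand. P2rx5 (ENSMUSG00000005950.14) is at chr11:73160421-73172685 on the plus strand. The annotated exons of these genes cover 2574 bases in P2rx2, 2789 in P2rx3, 7025 in P2rx4, 2395 in P2rx5 and 5970 in P2rx7, so levels were compared between genes only per kilobase of exon.

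The genes are paralogs, and the stretch in which their coding sequences are most alike shows how far reads can tell them apart. Among windows of 60 aligned coding bases without a gap and within 1 exon of every member, the window below has the most bases that are the same in all 5 members, which are in capitals and number 24. It lies in exon 6 of each gene, at chr5:110341783-110341842 for P2rx2, chr2:85023163-85023222 for P2rx3, chr5:122724606-122724665 for P2rx4, chr11:73166574-73166633 for P2rx5 and chr5:122663589-122663648 for P2rx7, and is written in the sense of the gene.
P2rx2: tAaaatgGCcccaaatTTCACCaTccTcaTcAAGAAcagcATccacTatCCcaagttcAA
P2rx3: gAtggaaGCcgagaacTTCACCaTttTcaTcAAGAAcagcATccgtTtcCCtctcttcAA
P2rx4: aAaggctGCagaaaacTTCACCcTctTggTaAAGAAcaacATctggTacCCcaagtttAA
P2rx5: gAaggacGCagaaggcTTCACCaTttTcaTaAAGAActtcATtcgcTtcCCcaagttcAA
P2rx7: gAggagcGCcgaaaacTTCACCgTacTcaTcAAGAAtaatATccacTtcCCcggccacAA
Even there, the other members differ from P2rx2 at 20 of 60 bases. Over the aligned coding bases, identity between members ran from 49.7% for P2rx2 and P2rx7 to 60.3% for P2rx4 and P2rx5, and was 55.9% for P2rx2 and P2rx3.

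The longest run of bases that any 2 of the 7 P2X genes share without a mismatch, over all their annotated transcripts, is one of 26 bases in P2rx2 and P2rx3, shown here whole in capitals.
P2rx2 and P2rx3: GGCTACAACTTCAGGTTTGCCAAATA
Every other pair shares at most 20 bases in a row. The read length is not given in the sources used here. Exons of other genes overlap those of P2rx3 and P2rx7 by 51 bases (Ssrp1, on the opposite strand, 1.83% of the exon bases of P2rx3) and 119 bases (Mir8115, 1.99% of those of P2rx7, with 0 counts in all groups). The strand setting of the authors' counting is not given in the sources used here, so reads in these stretches cannot be told apart.

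The cells had 5467115 to 18072166 counts each, with group medians of 9.09e+06 in Ctrl OHC and 1.28e+07 in Exp OHC, against 8.67e+06 in Ctrl IHC and 1.42e+07 in Exp IHC. Levels are counts per 1000000 counts (CPM) of the summed cells of a group. Rbm24 was at 315 CPM in Ctrl OHC and 431 CPM in Ctrl IHC, against 0.212 and 1.51 CPM in the mutants; single control cells lay between 78.8 and 921 CPM and single mutant cells between 0 and 15.6 CPM. Of the markers used to check the cell types, prestin (Slc26a5) had 376, 27.5, 0.640 and 0.825 CPM in Ctrl and Exp OHC and then Ctrl and Exp IHC, the order of all such values, and the IHC gene Slc17a8 at 6.16, 0.0472, 252 and 110 CPM. The other markers were mixed: in Exp OHC, all 7 OHC markers were at 10 CPM or more, among them Chrna10 (494 CPM) and Strip2 (832 CPM), and so were 3 of 7 IHC markers, Otof (390 CPM), Calb2 (966 CPM) and Slc7a14 (69.5 CPM), which Ctrl OHC also held. Ctrl IHC also had 5 of the 7 OHC markers at 10 CPM or more. In Exp OHC, Ocm, Sri, Aqp11 and Ikzf2 had 18.6, 155, 118 and 39.9 CPM, against 4951, 1135, 966 and 174 in Ctrl OHC. Cells 1 and 11 of Ctrl OHC had Slc26a5 and Ikzf2 both under 10 CPM, against their label, and results that rest on them are given with and without them. This rule was applied to control OHCs alone, and 25 of 56 Exp OHC, none of which was left out, also had both genes under 10 CPM. The mix of cells by sex also differed: 11 of 43 Ctrl OHC, 37 of 56 Exp OHC, 12 of 38 Ctrl IHC and 19 of 26 Exp IHC had Xist, the transcript of the inactive X chromosome, so ratios are also given within cells with Xist and within cells with Y-linked transcripts alone.

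P2rx2 was the leading P2X gene of the control OHCs and was lower in the mutant OHCs. Its level was 108 CPM in Ctrl OHC (95% counting interval 107 to 109) and 31.3 in Exp OHC (30.9 to 31.7), against 6.32 in Ctrl IHC (6.06 to 6.59) and 6.23 in Exp IHC (5.98 to 6.49). The order was thus Ctrl OHC, Exp OHC and then the IHC groups, whose intervals overlap. Since the reads carry no molecular identifiers and can be copies of 1 molecule, these intervals cover counting error only, not the spread between animals. In Ctrl OHC, the lowest, median and highest cells had 0, 88.1 and 345 CPM of P2rx2; in Exp OHC, they had 0, 0.0636 and 292 CPM. The 2 groups overlapped over nearly the whole range, and they differed in how many cells reached 10 CPM. Whether cells listed at 0 lacked the transcript or it was missed in them was not tested. P2rx2 reached 10 CPM in 33 of 43 Ctrl OHC (76.7%, exact binomial interval 61.4 to 88.2%) and in 15 of 56 Exp OHC (26.8%, 15.8 to 40.3%). In the IHC groups it did so in 4 of 38 (10.5%, 2.94 to 24.8%) and 2 of 26 cells (7.69%, 0.946 to 25.1%).

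**Figure D1:**
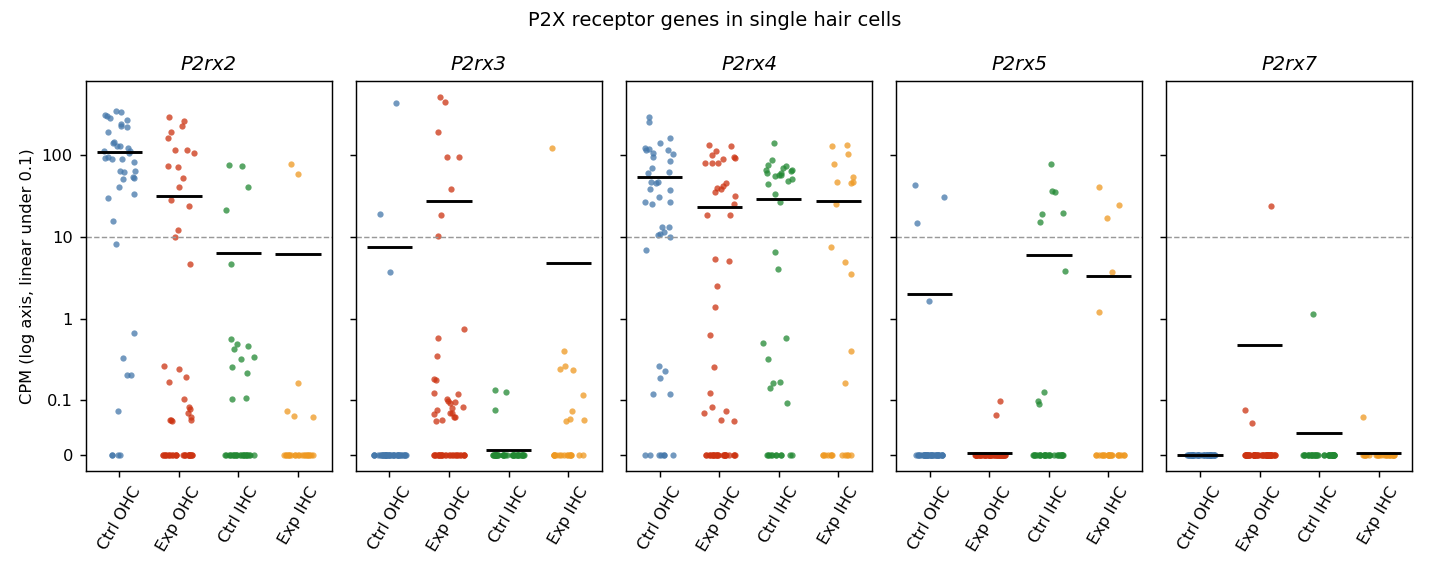
CPM of the 5 P2X genes in each single cell (points; vertical axis logarithmic, linear under 0.1 CPM) in the 4 groups. Black lines are the level of the summed group and the dashed line is 10 CPM; P2rx2 lies above that line in 33 of 43 Ctrl OHC and 15 of 56 Exp OHC, whereas P2rx3, P2rx5 and P2rx7 lie above it in few cells of any group.

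The mutant OHCs with P2rx2 had it at levels mostly within the control range. Their values were 292, 261, 226, 191, 163, 116, 114, 104, 72.5, 70.5, 51.9, 40.6, 27.8, 23.9 and 12.3 CPM, against 15.4 to 345 CPM in the 33 Ctrl OHC, so that 1 of the 15 lay below that range. The ratio of Exp OHC to Ctrl OHC was -1.79 on the log2 scale (-1.81 to -1.76), or 3.45-fold lower. It was -1.94 within cells with Y-linked transcripts and -1.14 within cells with Xist, and -1.85 without the pair of Ctrl OHC whose markers go against the label. No single cell carried this difference: the highest cell held 8.72% of the P2rx2 counts of Ctrl OHC and 16.4% of those of Exp OHC, and 9 and 4 cells held 50% of the counts. It was -1.96 when the highest cell of either group was left out.

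In the IHCs, P2rx2 rested on very few cells. Ctrl IHC 29, Ctrl IHC 38, Ctrl IHC 6 and Ctrl IHC 28 had 75.4, 72.5, 40.6 and 21.2 CPM, and the 3 highest held 89.1% of the group's counts. In Exp IHC, cells 16 and 5 had 77.8 and 58.3 CPM, and the highest held 58.9% of the counts. Ctrl IHC 29 and Ctrl IHC 38 had Slc17a8 at 521 and 127 CPM and Slc26a5 at 0.664 and 0.890 CPM, so that both carried the IHC marker and little of the OHC one. The genotype ratio in IHCs was -0.02 on the log2 scale (-0.11 to 0.06), but it was -0.63 without the highest cell of each group and -6.34 without the 3 highest, so these cells set its value. Between the control cell types, P2rx2 was 17.1-fold higher in Ctrl OHC (log2 ratio 4.09, 4.03 to 4.16). Between the mutant cell types, it was 5.03-fold higher in Exp OHC (2.33, 2.27 to 2.39), but the log2 ratio was 3.31 without the highest cell of each group and ran from 1.74 to 11.04 over the alternatives.

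P2rx2 was then set beside OHC genes in the same cells. All 33 Ctrl OHC at 10 CPM or more of P2rx2 also had Slc26a5 and Ocm, which encodes the calcium buffer oncomodulin, at 10 CPM or more, and 31 of them had Ikzf2, a transcription factor of OHCs. This is close to all Ctrl OHC, of which 41, 42 and 37 of 43 had these genes. In Exp OHC, 7 of the 15 cells with P2rx2 had Slc26a5, 7 had Ocm and 9 had Ikzf2, against 23, 15 and 21 of all 56. Slc26a5 was also present in 16 Exp OHC without P2rx2. Across the 56 Exp OHC, Spearman's rho of P2rx2 was 0.22 with Slc26a5, 0.31 with Ocm and 0.38 with Ikzf2. These values describe cells whose animals are not named, and they carry no test.

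P2rx3, the subunit known from sensory neurons, was present in few cells, and most of these were mutant OHCs. Its level was 7.48 CPM in Ctrl OHC (7.21 to 7.75) and 27.6 in Exp OHC (27.2 to 28.0), against 0.00861 in Ctrl IHC (3 counts, 0.00178 to 0.0252) and 4.77 in Exp IHC (4.55 to 5.00). The median cell had 0 CPM in Ctrl OHC and both IHC groups and 0.0634 CPM in Exp OHC. In Exp OHC, 29 of 56 cells had at least 1 count, 8 reached 10 CPM (14.3%, 6.38 to 26.2%) and the highest had 505 CPM. In Ctrl OHC, 2 of 43 cells reached 10 CPM (4.65%, 0.568 to 15.8%): cell 1 with 432 CPM and cell 6 with 18.9 CPM. No Ctrl IHC reached 10 CPM, which allows a share of up to 7.89%, and in Exp IHC only cell 24 did, with 122 CPM.

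The P2rx3 levels of 3 groups were therefore those of 1 or a few cells. Cell 1 held 92.7% of the counts of Ctrl OHC, and cell 24 held 98.8% of those of Exp IHC. In Exp OHC, cells 53 and 50 held 40.6% and 31.9%, and the 3 highest cells held 84.3%. The ratio of Exp OHC to Ctrl OHC was 1.88 on the log2 scale (1.83 to 1.94), or 3.69-fold higher. It was 4.93 without the highest cell of each group, 5.61 without the Ctrl OHC whose markers go against the label (cell 1 is one of them, and no Exp OHC was left out), 1.51 within cells with Y-linked transcripts and -0.06 within cells with Xist. The size of the ratio thus depended on which cells were compared. Its direction was kept under 11 of 12 alternatives, and within cells with Xist no increase was left. Of the 8 Exp OHC with P2rx3, 5 also had Slc26a5 and Ikzf2 under 10 CPM, and the 25 Exp OHC of that kind held 85.3% of the group's P2rx3 counts. In IHCs, the ratio of Exp IHC to Ctrl IHC was 9.11 (7.56 to 11.39), with 3 counts in the control sum, and leaving out the highest cell of either group gave 3.28. The ratio of Ctrl OHC to Ctrl IHC was 9.76 (8.21 to 12.04) with the same 3 counts, and ran from 6.04 to 10.95 over 10 alternatives. Without cell 1, 217 of the 2987 P2rx3 counts of Ctrl OHC were left. The ratio of Exp OHC to Exp IHC was 2.53 (2.46 to 2.61), or 8.20 without the highest cell of each group.

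**Figure D2:**
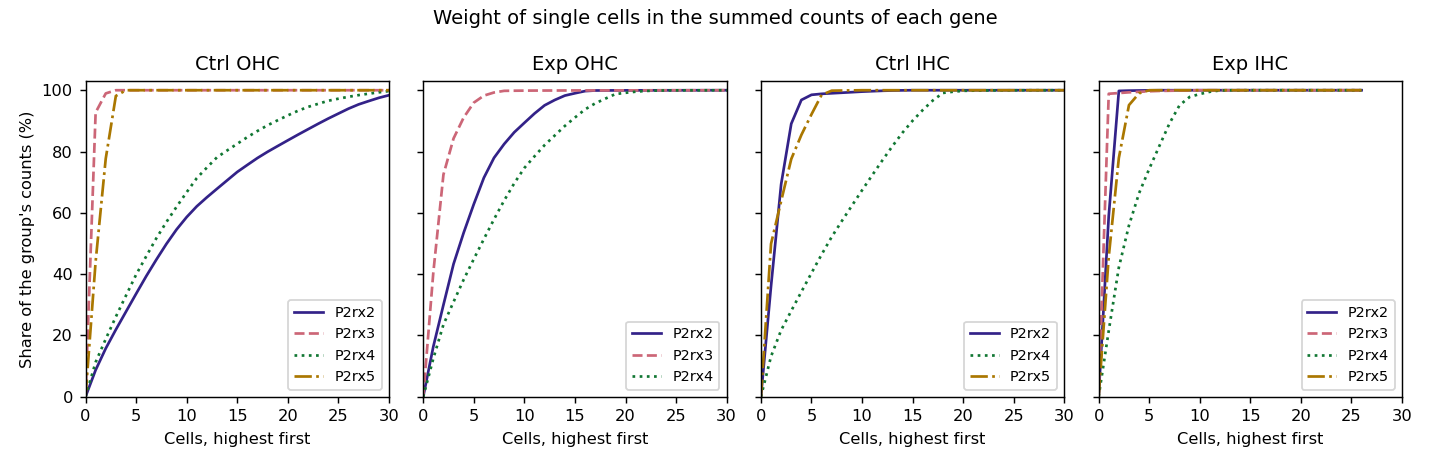
Share of each group's counts (vertical axis, percent) held by its cells ranked from the highest (horizontal axis, number of cells), for P2rx2, P2rx3, P2rx4 and P2rx5. P2rx3 in Ctrl IHC (3 counts) and P2rx5 in Exp OHC (2 counts) are not drawn. The curves of P2rx3 climb to over 90% within 1 cell in Ctrl OHC and Exp IHC. P2rx2 in Ctrl OHC and P2rx4 in Ctrl OHC, Exp OHC and Ctrl IHC climb slowly, whereas P2rx4 in Exp IHC reaches 55.9% within 3 cells.

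In the mutant OHCs, P2rx2 and P2rx3 were not found together in a cell at 10 CPM or more. Of the 56 Exp OHC, 15 had P2rx2 and 8 had P2rx3 at 10 CPM or more, and 0 cells had both. The 8 cells, Exp OHC 53, 50, 49, 30, 47, 14, 40 and 19, had 505, 449, 188, 95.5, 94.2, 38.5, 18.6 and 10.2 CPM of P2rx3. Their P2rx2 was listed at 0 in every one of them except cell 14, with 0.0843 CPM. Low P2rx3 was listed in some of the Exp OHC with P2rx2. It was 0.753 CPM in cell 28, 0.584 in cell 17 and 0.118 in cell 3. Cells 27, 38, 45 and 52 had 1 count each. The separation is thus one at 10 CPM. In Ctrl OHC, 1 cell had both transcripts (cell 6, with 129 CPM of P2rx2 and 18.9 CPM of P2rx3), and cell 1, with 432 CPM of P2rx3, had no count of P2rx2. With so few P2rx3 cells, an overlap of 0 among 56 is a description of these cells and was not tested.

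**Figure D3:**
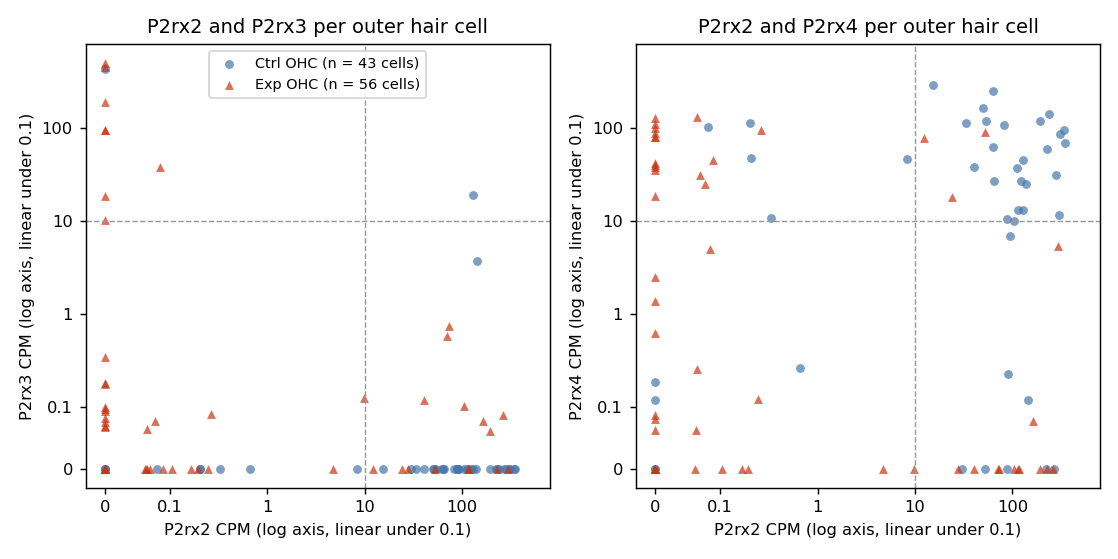
P2rx2 (horizontal axes) against P2rx3 (left) and P2rx4 (right) in single OHCs, in CPM on logarithmic axes that are linear under 0.1; circles are the 43 Ctrl OHC, triangles the 56 Exp OHC, and dashed lines mark 10 CPM. No triangle lies above 10 CPM for both P2rx2 and P2rx3, and 24 circles but 3 triangles lie above it for both P2rx2 and P2rx4.

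The mutant OHCs with P2rx3 shared a transcript of neuronal differentiation. Neurod6, which encodes a neurogenic transcription factor, reached 10 CPM in 7 of the 8 cells and in 18 of all 56 Exp OHC. It had 1021 CPM in Exp OHC 53, 606 in Exp OHC 50, 180 in Exp OHC 30, 169 in Exp OHC 47 and 160 in Exp OHC 14. In Exp OHC 19, 40 and 49 it had 63.2, 29.0 and 8.68 CPM. Spearman's rho of P2rx3 and Neurod6 across the 56 cells was 0.56. In contrast, 1 of the 15 Exp OHC with P2rx2 had Neurod6 at 10 CPM or more. Ctrl OHC 1 had 21.0 CPM of Neurod6 and was the only Ctrl OHC to reach 10 CPM. Insm1, a zinc finger factor of developing OHCs, reached 10 CPM in 5 of the 8 Exp OHC with P2rx3, in 4 of the 15 with P2rx2 and in 25 of all 56. Ocm and Ikzf2 reached it in 0 of the 8, against 15 and 21 of all 56, and Slc26a5 in 3 of the 8, against 23 of all 56.

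Neuronal RNA was read beside these cells because spiral ganglion neurons express P2rx3. Prph, the peripherin of type II neurons and a defining marker, had 0 counts in all 4 groups, and Tubb3 had 0.248, 0.0111, 2.16 and 0.0329 CPM in Ctrl and Exp OHC and Ctrl and Exp IHC. In all 11 cells at 10 CPM or more of P2rx3, both Prph and Tubb3 were listed at 0. Other neuronal markers were higher in Exp OHC than in Ctrl OHC: Gap43 had 25.7 against 0 CPM (20 against 0 cells at 10 CPM or more), Stmn2 had 12.1 against 0.218 CPM (17 against 0 cells) and Ntrk2 had 11.6 against 0.0125 CPM (10 against 0 cells). The whole list of 11 neuronal markers had 3, 7, 9 and 6 members at 1 CPM or more in those groups. Its summed level per cell ran from 51.5 to 896 CPM in Ctrl OHC and from 326 to 1567 CPM in Exp OHC, and from 419 to 1210 CPM and 605 to 2740 CPM in Ctrl and Exp IHC, mostly from Nefl, Nefm and Snap25, which hair cells also express. The cells with P2rx3 also had hair cell genes: Myo7a, the myosin of hair cells, had 157 to 1053 CPM in them. Some also had supporting cell markers: their summed level was 330 CPM in Exp OHC 53, the highest of its group (median 0.387), 113 in Exp OHC 30, 86.1 in Exp OHC 50, 271 in Ctrl OHC 6 and 84.9 in Ctrl OHC 1 (median of Ctrl OHC 18.4). Exp OHC 30 had Ptprc at 46.8 CPM. Mesenchyme markers summed to 102 CPM in Ctrl OHC 1, the highest of its group (median 0), and to 41.3 CPM in Exp IHC 24. Exp IHC 24 also had 55.4 CPM of supporting cell markers (group median 9.66). Glia markers summed to 16.7, 17.9 and 19.0 CPM in Exp OHC 19, 30 and 40, and to 18.0 CPM in Ctrl OHC 6. Both the mesenchyme and the glia markers were at 0 in Exp OHC 14. The part of RNA from other cells in the P2rx3 values was not tested. The overlapping gene Ssrp1 was listed at 0 in Ctrl OHC 1 and Exp IHC 24 and had 0.0804 CPM in Exp OHC 49, where P2rx3 had 432, 122 and 188 CPM. It had 10.7 CPM in Exp OHC 53 and 115 CPM in Exp OHC 50, where P2rx3 had 505 and 449 CPM.

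P2rx4, a subunit found in many cell types and much of it in lysosomes, was found in many cells of every group. Its level was 53.0 CPM in Ctrl OHC (52.3 to 53.7) and 22.9 in Exp OHC (22.6 to 23.3), against 29.2 in Ctrl IHC (28.7 to 29.8) and 27.0 in Exp IHC (26.5 to 27.6). The lowest cell had 0 CPM in every group, the medians were 26.8, 0.0790, 5.27 and 0.283 CPM, and the highest cells had 293, 132, 141 and 133 CPM. Cell ranges thus overlapped among all groups, and the median cell was far below the group level outside Ctrl OHC. P2rx4 reached 10 CPM in 29 of 43 Ctrl OHC (67.4%, 51.5 to 80.9%), 19 of 56 Exp OHC (33.9%, 21.8 to 47.8%), 18 of 38 Ctrl IHC (47.4%, 31.0 to 64.2%) and 9 of 26 Exp IHC (34.6%, 17.2 to 55.7%).

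The genotype ratio of P2rx4 was -1.21 on the log2 scale in OHCs (-1.24 to -1.18), or 2.31-fold lower in the mutants, and -0.11 in IHCs (-0.15 to -0.07). In OHCs it stayed between -1.51 (cells with Xist) and -0.92 (cells high in Gm15772, a transcript that splits the cells into 2 sets) over all 12 alternatives, and the last was the one value short of 2-fold. In IHCs it changed sign with the cells used, from -0.67 without the 3 highest cells of each group to 0.28 in cells low in Gm15772. The highest cell held 11.3%, 12.5%, 13.2% and 21.5% of the counts in Ctrl and Exp OHC and Ctrl and Exp IHC. In Exp IHC, the 3 highest cells held 55.9%. Ctrl OHC had 1.81-fold more than Ctrl IHC (log2 ratio 0.86, 0.82 to 0.89), and the ratio of Exp OHC to Exp IHC was -0.24 (-0.27 to -0.20), or 0.22 without the 3 highest cells of each group.

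P2rx2 and P2rx4 were together in most control OHCs and in few mutant ones. At 10 CPM or more, 24 of 43 Ctrl OHC had both, 9 had P2rx2 alone, 5 had P2rx4 alone and 5 had neither. Of 56 Exp OHC, 3 had both, 12 had P2rx2 alone, 16 had P2rx4 alone and 25 had neither. Each gene was also in fewer mutant cells: P2rx2 in 33 of 43 and 15 of 56, and P2rx4 in 29 of 43 and 19 of 56. Whether the overlap differs from what these shares alone would give was not tested. Spearman's rho of the pair was 0.10 across Ctrl OHC and -0.28 across Exp OHC. P2rx4 was found in 4 of the 8 Exp OHC with P2rx3, and 12 of the 19 Exp OHC with P2rx4 had Neurod6 at 10 CPM or more, against 18 of all 56.

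P2rx5, whose product forms channels and joins mixed ones in other tissues, was a gene of few cells. Its level was 2.02 CPM in Ctrl OHC (1.88 to 2.16) and 0.00278 in Exp OHC (2 counts, 0.000336 to 0.0100), against 6.02 in Ctrl IHC (5.77 to 6.29) and 3.28 in Exp IHC (3.09 to 3.47). It reached 10 CPM in 3 of 43 Ctrl OHC, where cells 13, 7 and 21 had 42.4, 31.0 and 14.5 CPM, and in 0 of 56 Exp OHC, which allows a share of up to 5.36%. All 3 of these Ctrl OHC also had P2rx2, at 143, 113 and 221 CPM. In Ctrl IHC, 6 of 38 cells reached it, led by cell 23 with 76.5 CPM, which held 49.9% of the counts. In Exp IHC, 3 of 26 did, with 40.0 CPM in cell 1, 24.5 in cell 4 and 16.7 in cell 8. The genotype ratio was -9.51 on the log2 scale in OHCs (-12.55 to -7.65), with 2 counts in the mutant sum, and -0.88 in IHCs (-0.98 to -0.78). In IHCs it was 0.55 within cells with Y-linked transcripts and 0.41 in cells low in Gm15772, but -2.42 within cells with Xist and -3.04 without the 3 highest cells of each group. The difference in OHCs rested on 3 control cells: leaving out the 3 highest of each group, the ratio was at most -3.20, with 0 counts left in Exp OHC. The ratio of Ctrl OHC to Ctrl IHC was -1.58 (-1.70 to -1.46), and it was 0.17 in cells high in Gm15772; that of Exp OHC to Exp IHC was -10.20 (-13.25 to -8.35).

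P2rx7, whose product opens at high ATP and is best known from macrophages and microglia, was almost absent. It had 0 counts in Ctrl OHC and 340 counts in Exp OHC (0.472 CPM, 0.423 to 0.525), against 14 in Ctrl IHC (0.0402 CPM) and 1 in Exp IHC (0.00274 CPM). A single cell accounts for the level in Exp OHC: cell 1 had 338 of the 340 counts, or 23.9 CPM, and all 14 counts of Ctrl IHC came from cell 30. Against the floor of 3 counts over the group (0.00751 CPM in Ctrl OHC), P2rx7 was at least 62.9-fold higher in Exp OHC, a bound that rests on this 1 cell. Exp OHC 1 had Slc26a5 at 349 CPM and P2rx2 at 27.8 CPM, and the macrophage genes Csf1r and Ptprc were listed at 0 in it. Of the list of 9 macrophage and immune markers, 1, 3, 1 and 1 were at 1 CPM or more in Ctrl and Exp OHC and Ctrl and Exp IHC. Nearly all of its summed level, 0 to 476 CPM per cell in Ctrl OHC and 0 to 789 in Exp OHC, against 0 to 293 in Ctrl IHC and 45.7 to 622 in Exp IHC, came from C1qb. The mean of both groups was under 1 CPM in each comparison, so P2rx7 was not among the genes compared for a 2-fold difference.

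The members were then counted side by side in the 4 comparisons. Genes whose mean over both groups reached 1 CPM were compared, and a difference was counted from 2-fold on. In Exp OHC against Ctrl OHC, 3 of 4 members were lower (P2rx2, P2rx4 and P2rx5) and 1 was higher (P2rx3), where 13.1% of all 14588 genes compared were lower and 18.4% higher; the members' median log2 ratio was -1.50 against 0.06 over all genes. The count of members was 2, both lower, within cells with Xist and within cells high in Gm15772. It was 3 of 3 compared without the highest cell of each group. In Exp IHC against Ctrl IHC, 0 of 4 were lower and 1 was higher (P2rx3, on 1 cell), where 11.7% of 14557 genes were lower and 18.8% higher; the medians were -0.07 and 0.11. In Ctrl OHC against Ctrl IHC, 1 of 4 was lower (P2rx5) and 2 were higher (P2rx2 and P2rx3), with 13.4% and 15.3% of 14445 genes. Cell 1 of Ctrl OHC, whose markers go against its label, held 92.7% of the P2rx3 counts of that group. In Exp OHC against Exp IHC, again P2rx5 was lower and P2rx2 and P2rx3 higher, with 14.5% and 14% of 14769 genes. The medians were 2.48 and 1.05 for the members, against 0.04 and 0.00 over all genes. These comparisons share groups and are not independent of one another, and whether the genotype ratios differ between OHCs and IHCs was not tested.

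**Figure D4:**
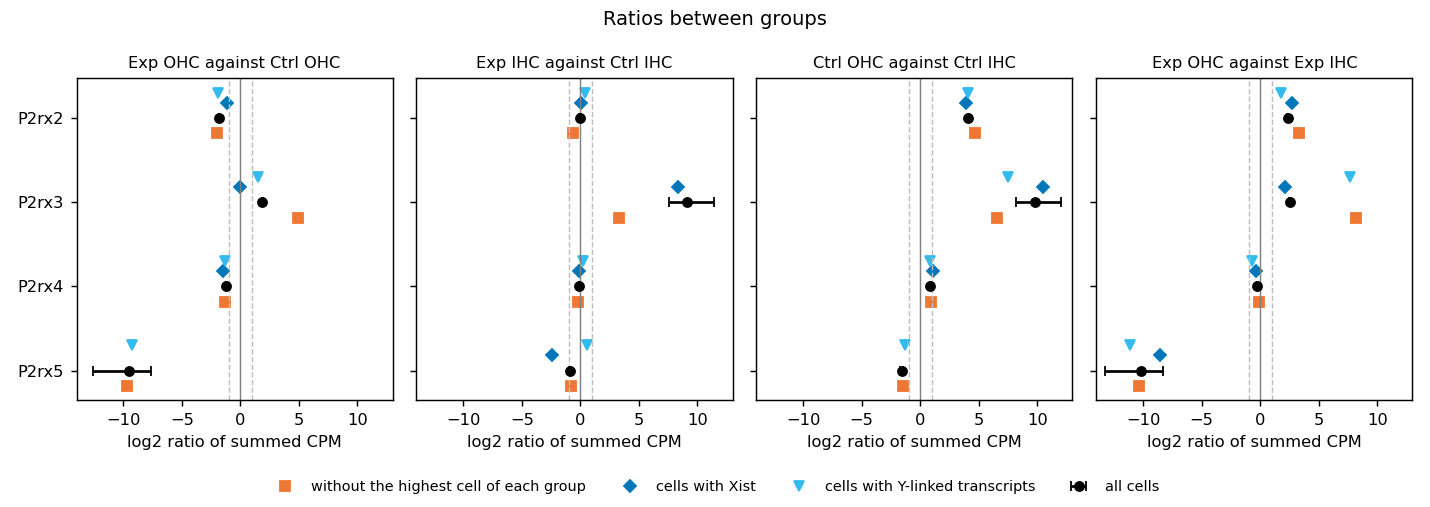
Log2 ratios of summed CPM (horizontal axes) of P2rx2, P2rx3, P2rx4 and P2rx5 in the 4 comparisons; black points are all cells with their 95% counting interval, squares leave out the highest cell of each group, diamonds use cells with Xist and triangles cells with Y-linked transcripts, and dashed lines mark 2-fold. P2rx2 and P2rx4 keep one side of 0 in OHCs between genotypes, whereas P2rx3 moves between -0.06 and 4.93 there; values against a sum of 0 are not drawn.

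The pool of P2X transcripts was smaller in mutant OHCs and had another make-up. Per kilobase of exon, the 7 P2X genes summed to 56.6 CPM in Ctrl OHC and 29.7 in Exp OHC, against 18.1 in Ctrl IHC and 21.2 in Exp IHC. P2rx2 made up 74.1% of this sum in Ctrl OHC and 41.0% in Exp OHC, against 13.5% in Ctrl IHC and 11.4% in Exp IHC. P2rx3 made up 4.74%, 33.4%, 0.0170% and 8.07%, and P2rx4 13.3%, 11.0%, 22.9% and 18.2%. The P2rx3 shares rest on few cells: 3 cells held 84.3% of its counts in Exp OHC, and 1 cell held 92.7% in Ctrl OHC and 98.8% in Exp IHC. In the IHC groups the largest part came from P2rx6, a subunit that hardly forms channels alone, with 45.3% and 53.3%. The lengths used are all annotated exon bases, 7025 in P2rx4 and 3995 in P2rx6. Other lengths, which would shift the shares, were not tried. P2rx6 had 14.3, 17.0, 32.9 and 45.1 CPM, not per length, in Ctrl and Exp OHC and Ctrl and Exp IHC, and reached 10 CPM in 10, 15, 16 and 14 cells. Its exons overlap those of Slc7a4 on the opposite strand over 554 bases (13.9%), and Slc7a4 had 80.2, 113, 73.9 and 133 CPM, and without the strand setting their reads cannot be told apart there. P2rx1 had 0 counts in both OHC groups and 2.04 and 1.42 CPM in Ctrl IHC and Exp IHC, where all 518 counts came from cell 3.

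**Figure D5:**
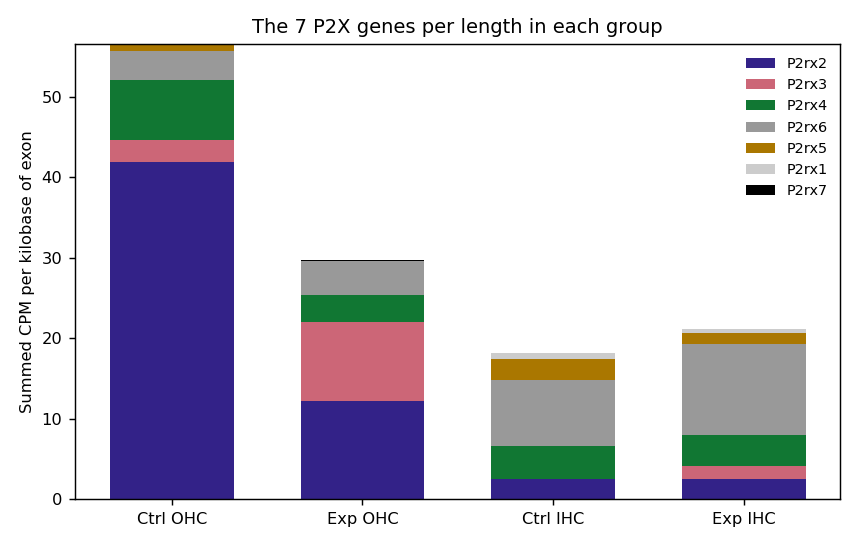
Summed CPM per kilobase of exon (vertical axis) of the 7 P2X genes, stacked for each group. The stack is 56.6 in Ctrl OHC and 29.7 in Exp OHC, where P2rx2 is smaller and P2rx3 larger, and 18.1 and 21.2 in the IHC groups, where P2rx6 is the largest part. In Exp OHC, 3 cells held 84.3% of the P2rx3 counts.

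Counted per cell, most control OHCs held at least 1 of the 5 members. At 10 CPM or more, 39 of 43 Ctrl OHC (90.7%), 35 of 56 Exp OHC (62.5%), 24 of 38 Ctrl IHC (63.2%) and 11 of 26 Exp IHC (42.3%) had a member. In Ctrl OHC, 13 cells had 1 member, 24 had 2 and 2 had 3; in Exp OHC, 27 had 1, 8 had 2 and 0 had 3. Cells of Ctrl OHC with no member numbered 4, against 21 in Exp OHC, at median depths of 9.09e+06 and 1.28e+07 counts and medians of 9774 and 9698.5 genes with a count. In Ctrl IHC, 21 cells had 1 member, 2 had 2 and 1 had 3. In Exp IHC, 7 had 1 and 4 had 2.

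The genes whose levels ran most like P2rx2 were sought among 6107 genes at 10 CPM or more in at least 50% of Ctrl OHC. Across all 163 cells, Spearman's rho was highest with Proser2 (0.68), Ppp4r4 (0.64), Kalrn (0.63), Ablim3 (0.62) and Slc26a5 (0.61). It was lowest with Selenom (-0.59), Mlf1 (-0.58), Mgst3 (-0.58), Tspan13 (-0.57) and Gm11837 (-0.53). These values mix differences between groups with those between cells. Within the 43 Ctrl OHC alone, the highest were Faim2 (0.61), Txndc15 (0.60), Klhdc7b (0.60), Mtmr11 (0.60) and Ap3b2 (0.59), none of which is among the 5 highest over all cells. For P2rx4 the likeness was weaker over all cells, with Uba2 (0.34), Prmt3 (0.34), Trmt6 (0.33), Rabgef1 (0.33) and Faf2 (0.33) highest and Ftl1 (-0.36), Hs3st6 (-0.35), Dynlt1b (-0.34), Dynlt1-ps1 (-0.32) and Rpl35 (-0.32) lowest. Within Ctrl OHC, P2rx4 ran most like Ccdc68 (0.60), Fam76a (0.58), Gsta4 (0.56), Kpna1 (0.55) and Zbtb11 (0.51). The other members were at 10 CPM in too few cells for such a ranking.

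Of 36 other purinergic genes measured, 11 reached 5 CPM in a group. Among 8 P2Y receptors, the G protein-coupled receptors for nucleotides, P2ry14, a receptor for UDP-glucose, was the one to do so, with 16.6 CPM in Ctrl OHC and 12.2 in Exp OHC, against 17.3 in Ctrl IHC and 23.7 in Exp IHC. None of 4 adenosine receptor genes did. Of 12 genes for enzymes that break down extracellular nucleotides, 5 were compared between OHCs and 3 were lower in the mutants, where 13.1% of all genes were: Entpd5, Acpp and, named for its value, Nt5e. Nt5e and Acpp each reached 10 CPM in 4 Ctrl OHC and 1 Exp OHC, and 1 cell held 80.9% and 98.9% of their counts in Exp OHC. Entpd5 had 64.9 CPM in Ctrl OHC and 28.9 in Exp OHC, a log2 ratio of -1.17 (-1.19 to -1.14), and was at 27.6 and 27.1 CPM in the IHC groups. Entpd6 had 54.2 and 27.3 CPM in OHCs (-0.99, -1.02 to -0.96) and 36.9 and 65.4 CPM in IHCs (0.82, 0.79 to 0.86). Both encode relatives of the surface ATPases that lie mostly inside cells. Entpd3, a surface ATPase, had 4.67, 2.95, 8.28 and 12.9 CPM, and Acpp 2.49, 0.761, 7.46 and 3.08 CPM, in Ctrl and Exp OHC and Ctrl and Exp IHC. In IHCs, 5 such genes were compared between genotypes and 1 was lower (Acpp, -1.28), where 11.7% of all genes were; Acpp reached 10 CPM in 6 Ctrl IHC and 2 Exp IHC, and 1 cell held 45.1% and 69.5% of its counts there.

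Genes for ATP release gave even levels for Panx1 (20.7, 14.6, 13.1 and 13.3 CPM in Ctrl and Exp OHC and Ctrl and Exp IHC) and Lrrc8a (24.6, 22.5, 15.4 and 16.7 CPM), which encode a pannexin and a volume-regulated anion channel subunit. Gjb2 and Gjb6, the connexins through which supporting cells release ATP, and Ano1, their calcium-activated chloride channel, stood out in Ctrl IHC, with 29.9, 18.6 and 14.2 CPM against 0.00548, 0 and 0 CPM in Exp IHC. They rested on 7, 5 and 6 of 38 Ctrl IHC. The list of 10 supporting cell markers, which holds Gjb2 and Gjb6, had 7 members at 1 CPM or more in Ctrl IHC and 2 in Exp IHC; its sum per cell ran from 0 to 971 CPM and from 0 to 58.9 CPM, and of its other members, Tecta had 19.8 CPM in Ctrl IHC (6 cells at 10 CPM or more) and Otog 6.16 CPM (3 cells), both with 0 counts in Exp IHC, whereas Epyc had 0 counts in Ctrl IHC. Sox2 and Lfng, also on the list, were not lower in Exp IHC, with 14.9 and 1.65 CPM against 11.2 and 1.43 CPM in Ctrl IHC. Sox2 reached 10 CPM in 12 cells of either group. The part of supporting cell RNA in these values was not tested. Slc17a9, which loads ATP into vesicles, stayed under 5 CPM in every group and is named for its values: it had 0.103 CPM in Ctrl OHC and 3.62 in Exp OHC, and 0.473 in Ctrl IHC and 3.89 in Exp IHC, on 6 Exp OHC and 2 Exp IHC at 10 CPM or more. Apbb1, whose product was reported to bind the P2rx2 subunit, had 73.5, 69.9, 61.2 and 74.6 CPM and stayed within 2-fold in all 4 comparisons.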

How the data were processed

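Single hair cells were sequenced with a full-length Smart-Seq kit, per the labels' protocols, from cells picked by hand; the protocol also speaks of iOHCs, a term the group labels do not use. The authors deposited raw read counts per gene and cell, made with HISAT2 2.2.1, SAMtools and featureCounts 2.0.1 on mm10, per the submitters' processing notes; the annotation, the strand setting and the handling of shared reads are not given in the sources used here. How a cell was assigned to IHC or OHC is not stated either. No pair of the 163 columns was identical. Symbols of 55034 of 55291 genes (99.5%) and loci came from GENCODE M21 (GRCm38, the same assembly as mm10).

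Counts were summed per group and divided by the group total to give CPM (Python 3.11.15, pandas 2.3.3, scipy 1.17.1). Ratios have exact conditional binomial (Clopper-Pearson) 95% intervals, levels exact Poisson intervals, and shares of cells exact binomial intervals. A sum of 0 was replaced by 3 counts per group sum, and a share of 0 cells was limited by 3 counts. No test across samples was possible with 1 sample a group. Alternatives used TMM factors (edgeR 4.0.16 in R 4.3.3), size factors by the median of ratios, other weights of cells, other sets of cells, thinning to 5000000 counts and other minimums. The interval code was tested on simulated data. Coding sequences of the principal transcripts were aligned with MAFFT 7.526.

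The members, gene lists and settings were chosen with earlier results of these data known. Named were all members, P2rx1 and P2rx6, purinergic genes at 5 CPM or more in a group, the 5 genes most and least like a member present in at least 50% of a group's cells, and cells holding 20% or more of a group's counts. Genes named after their values were seen are Nt5e, Slc17a9 and the single marker genes. Marker lists of glia, mesenchyme, endothelium and erythroid cells had at most 2 members of any list at 1 CPM or more in a group.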

Additional observations from a re-analysis of the deposited data

How the results depend on the processing

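No paired analysis was possible because the numbers in the labels only count the cells of a group and no test was made. The count of members past 2-fold between OHC genotypes (4) was 2 within cells with Xist and 2 within cells high in Gm15772. It was 3 of 3 compared without the highest or the 3 highest cells, in cells low in Gm15772 and with a minimum of 5 CPM. With no minimum it was 5 of 5. Between IHC genotypes (1) it was 0 without the highest or the 3 highest cells, 0 within cells with Y-linked transcripts or low in Gm15772 and with a minimum of 5 CPM, and 2 within cells with Xist, within cells high in Gm15772 and with no minimum. Between control cell types (3) it was 1 without the 3 highest cells and 1 with a minimum of 5 CPM. The log2 ratio of P2rx2 between OHC genotypes (-1.79) was negative under all 12 alternatives. It was -1.82 with TMM, -1.85 with median-of-ratios factors, -1.81 without mitochondrial genes, -1.76 as the mean of cells, -1.96 and -2.23 without the highest and the 3 highest cells, -1.85 without cells whose markers go against the label, -1.94 and -1.14 with Y-linked transcripts and with Xist, -1.85 and -1.70 in cells low and high in Gm15772, and -1.76 after thinning. Between IHC genotypes (-0.02) it was -0.11 with TMM, -0.13 as the mean of cells, -0.63 and -6.34 without the highest and the 3 highest cells, 0.42 with Y-linked transcripts, 0.26 and 0.42 in cells low and high in Gm15772, and -0.11 after thinning. Cells with any member (66.9%) were 90.8% at 1 count, 48.5% at 50 CPM and 85.9% at 1 count after thinning. The log2 ratio of P2rx3 between OHC genotypes turned to -0.061 within cells with Xist, and P2rx5 between control cell types to 0.17 in cells high in Gm15772. Ratios within 2-fold also changed sign: P2rx4 (up to 0.28) and P2rx5 (up to 0.55) between IHC genotypes, and P2rx4 (up to 0.22) between mutant cell types. The cause was not tested. All rescalings moved the median gene by less than 0.1 on the log2 scale. Depth of the summed groups limits only the rarest members: 3 counts are 0.00416 to 0.00861 CPM. Transcripts missed in single cells were not measured, and the spread between animals could not be measured.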
